A study of Mus musculus with 2 samples.

Results

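A set of 7 genes of the Bcl2 family was followed through T cells that had infiltrated mouse melanomas: Bcl2, Bcl2l1, Mcl1, Bcl2a1b, Bcl2a1d, Bax and Bcl2l11. They were chosen by name as the family's survival and death genes, not by a rule on their values, though with earlier results of these data known. They are 7 of the 31053 mouse genes in the count matrix. The cells were TCR-β+ T cells sorted on day 9 from B16 tumors, which grow from a mouse melanoma line, and from B16–IL-33 tumors, whose melanoma cells were engineered to overexpress the secreted form of the alarmin IL-33. All mice of the study were on the C57BL/6 background, no drug was given to these mice per the labels, and neither the age nor the number of animals behind the pool is given in the sources used here. The cells of both tumors were marked with hashtag antibodies, pooled and sequenced as 1 gene expression library by the 10x 5′ method, so every value below describes cells of 1 pool and no comparison has a replicate.

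Bcl2 family proteins decide at the outer mitochondrial membrane whether a cell starts apoptosis. BCL-2, BCL-xL (from Bcl2l1), MCL-1 and A1 (from the Bcl2a1 genes) hold the pore formers BAX and BAK in check, and BH3-only proteins such as BIM (from Bcl2l11) bind and neutralize these survival proteins. In T cells, cytokine signals through IL-7 and IL-2 receptors sustain BCL-2 and MCL-1, antigen receptor and costimulatory signals induce BCL-xL and A1 through NF-κB, and BIM limits T cells after activation. Regulatory T (Treg) cells are known to depend on MCL-1.

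Bcl2a1b and Bcl2a1d are near-identical copies, so their sequences are shown first. All coordinates are from GENCODE vM21 on GRCm38, the assembly behind mm10. Bcl2a1b lies at chr9:89199209-89207827 on the plus strand and Bcl2a1d at chr9:88723285-88731914 on the minus strand. Over the 817 aligned bases of their transcripts, 7 bases differed, which is 99.1% identity. One of the 7 lies in the 5′ UTR and 6 lie in the coding sequence, so within this aligned part a read can be assigned to 1 copy only if it covers such a base. The 3 coding differences nearest to the 5′ end, which a 5′ library covers best, are printed with the differing base in capitals, each named by its position in its own transcript.

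Bcl2a1b position 155: ccagggaagatgGctgagtacgagt
Bcl2a1d position 199: ccagggaagatgTctgagtacgagt
Bcl2a1b position 199: ggctgagcactaTcttcagtatgtg
Bcl2a1d position 243: ggctgagcactaCcttcagtatgtg
Bcl2a1b position 245: tcggctccaagcAaagcatgcagag
Bcl2a1d position 289: tcggctccaagcCaagcatgcagag

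The DNA upstream of both copies is also similar, less so than the transcripts once gaps count, and it is printed because the 2 genes did not share 1 pattern of counts. The stretch of 136 bases directly upstream of the annotated start of Bcl2a1d, at chr9:88731915-88732050 on the minus strand, aligned to 142 bases of Bcl2a1b at chr9:89199023-89199164 on the plus strand. The sequences come from RefSeq's promoter windows on GRCm38.p6. They shared 135 bases and differed at 1 base, and Bcl2a1b has 6 more bases. Capitals mark the differing base and the 6 extra bases.

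Bcl2a1b: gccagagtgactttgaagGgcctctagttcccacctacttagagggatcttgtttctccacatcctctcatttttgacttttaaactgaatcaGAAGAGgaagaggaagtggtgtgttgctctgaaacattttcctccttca
Bcl2a1d: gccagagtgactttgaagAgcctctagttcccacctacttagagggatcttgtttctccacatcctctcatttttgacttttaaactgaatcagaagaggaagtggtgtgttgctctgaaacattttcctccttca

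The other members lie apart from this cluster on chromosome 9. Bcl2 spans chr1:106538178-106714274 on the minus strand, Bcl2l1 chr2:152780668-152831728 on the minus strand and Mcl1 chr3:95658788-95663176 on the plus strand. Bax spans chr7:45461697-45466898 on the minus strand and Bcl2l11 chr2:128126038-128162547 on the plus strand.

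Of 14035 cell barcodes, 9078 were kept with 200 to 2500 detected genes and under 5% mitochondrial UMIs, and they held 254 to 14063 UMIs with a median of 2467. CD8+ T cells had more Cd8a and Cd8b1 UMIs than Cd4 and Foxp3 UMIs (1260 cells). Treg cells had a Foxp3 UMI and no Cd8 UMI (2609 cells), and conventional CD4+ T (Tconv) cells had a Cd4 UMI and no Foxp3 or Cd8 UMI (1769 cells). The fourth group, called NKT here after the rule, held 81 cells with a Zbtb16 UMI and no Foxp3 or Cd8 UMI, of which 21 also counted as Tconv cells. A further 3380 cells showed none of these combinations. Median depth was 3462.5 UMIs per CD8+ T cell, 2780 per Treg cell, 2498 per Tconv cell and 2939 per NKT cell. Of the barcodes, 11756 were shared with the hashtag library and 6665 with the TCR library. Doublets were not called, and the 428 kept cells with at least 2 productive beta chains were left out as an alternative.

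Markers that the rule did not use were compared with the labels. Treg cells held Ikzf2 at 859 CPM (the gene's UMIs relative to all UMIs of the group), Tconv cells at 280 CPM. Il2ra stood at 452 CPM in Treg cells and at 112 CPM in Tconv cells. At equal depth 22.6% of Tconv cells still had an Ikzf2 UMI, against 65.8% of Treg cells and 18.2% of CD8+ T cells. Whether these Tconv cells are Treg cells whose Foxp3 was not read was not tested. Of the Tconv cells, 697 of 1769 had an Ikzf2 or Il2ra UMI. In NKT cells, Klrb1c (encoding NK1.1) had 17 UMIs and Cd160 had 6, so the name rests mainly on Zbtb16. Macrophage markers were present in every T cell group, with summed levels of 165 CPM in CD8+ T cells, 175 CPM in Treg cells, 177 CPM in Tconv cells and 241 CPM in NKT cells, against 8695 CPM in 183 cells with at least 3 macrophage marker UMIs and no CD3 UMI. The marker lists had UMIs of 7 of 7 macrophage genes in the 3 larger groups and 3 of 7 in NKT cells, and their part in the results was not tested. Lyz2, a gene of macrophages and neutrophils, gives the share that stray RNA or attached cells can produce. At 1500 UMIs per cell, 2.17% of CD8+ T cells, 2.55% of Treg cells and 3.59% of Tconv cells had a Lyz2 UMI, against 84.96% of macrophage-marker cells, whose median depth was 3573 UMIs.

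Levels are CPM summed over a group, with exact Poisson 95% intervals. Shares of cells with a UMI come from cells thinned to 1500 UMIs each (1151 CD8+ T cells, 2155 Treg cells, 1447 Tconv cells and 79 NKT cells), with exact binomial intervals. All intervals cover counting error only, not differences between animals. Each UMI stands for 1 captured 5′ end and is not divided by gene length, so levels are compared between groups and not between genes.

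**Figure D1:**
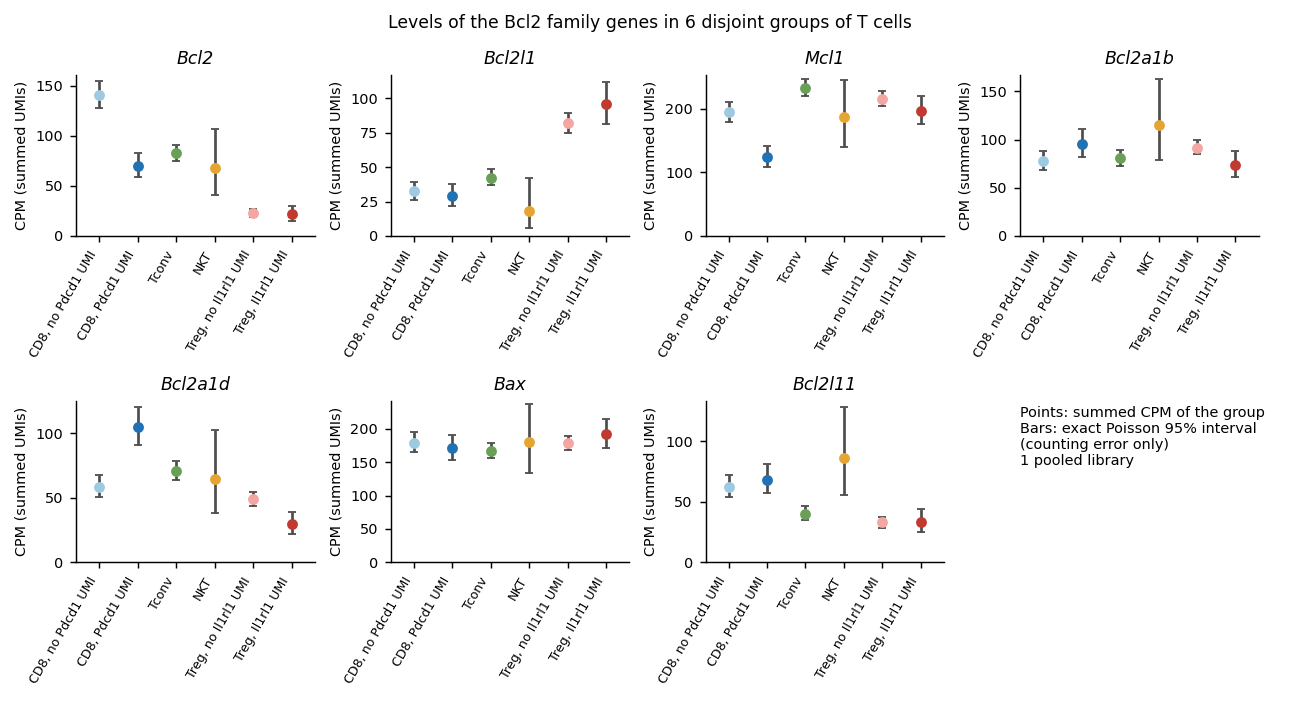
Summed CPM of the 7 genes in 6 groups that share no cell (points) with exact Poisson 95% intervals (bars). Bcl2 was lowest in both Treg groups, at 22.0 and 22.9 CPM, Bcl2l1 was highest there, and Bax lay between 167 and 192 CPM in all 6 groups.

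Bcl2, the survival gene named for the family, separated Treg cells from the other T cells. It was read at 114 CPM (104.9 to 123.7, 576 UMIs) in CD8+ T cells, 82.7 CPM (74.9 to 91.0, 415 UMIs) in Tconv cells, 68.3 CPM (41.1 to 106.6, 19 UMIs) in NKT cells and 22.8 CPM (19.6 to 26.2, 188 UMIs) in Treg cells. The Treg interval did not overlap any of the other 3. At 1500 UMIs, 14.1% of CD8+ T cells (12.1% to 16.2%), 11.3% of Tconv cells (9.75% to 13.1%), 11.4% of NKT cells (5.34% to 20.5%) and 2.88% of Treg cells (2.21% to 3.67%) had a Bcl2 UMI. Without thinning the shares were 27.3%, 15.9%, 17.3% and 5.44%. In macrophage-marker cells, used as a reference for stray RNA, the share was 2.26% (0.468% to 6.45%) and the level 13.0 CPM (5.97 to 24.8, 9 UMIs). Both intervals overlapped those of Treg cells. With 9 UMIs, and with expression of Bcl2 by macrophage-marker cells not tested, this reference cannot decide whether the Treg values are above background. The Treg values are not read as expression. The Bcl2 ratios between Treg cells and other groups are therefore ratios of what was read, and how much of the Treg level is stray RNA was not tested. The other members gave no such reference, since macrophage-marker cells held them at 79.7 CPM (Bcl2l11) to 794 CPM (Mcl1). Among the 6 disjoint groups the order ran from CD8+ T cells without a Pdcd1 UMI (140.6 CPM) over Tconv cells without a Zbtb16 UMI (82.8 CPM), CD8+ T cells with a Pdcd1 UMI (69.9 CPM) and NKT cells to Treg cells without (22.9 CPM) and with (22.0 CPM) an Il1rl1 UMI. Only the steps after the first group and before the Treg groups were larger than counting error.

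Bcl2l1, which encodes BCL-xL, ran the other way. Its level was 84.7 CPM (78.6 to 91.2, 700 UMIs) in Treg cells, 41.8 CPM (36.4 to 47.9, 210 UMIs) in Tconv cells, 31.1 CPM (26.4 to 36.3, 157 UMIs) in CD8+ T cells and 18.0 CPM (5.83 to 41.9, 5 UMIs) in NKT cells. Treg cells stood above the other 3 groups without overlap of intervals. At 1500 UMIs, 11.6% of Treg cells (10.2% to 13.0%) had a Bcl2l1 UMI, against 5.39% of Tconv cells (4.28% to 6.68%) and 4.95% of CD8+ T cells (3.77% to 6.37%), and without thinning the shares were 19.8%, 9.72% and 10.8%. Treg cells with an Il1rl1 UMI, at 95.9 CPM, did not differ beyond counting error from those without, at 82.0 CPM, whose level exceeded that of Tconv cells 1.94-fold (1.65 to 2.28).

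Mcl1, encoding a short-lived survival protein that T cells require, differed by less than 1.5-fold between CD8+ T, Treg and Tconv cells. Its CD8+ T cell level lay below those of Tconv and Treg cells without overlap of intervals. It was read at 233 CPM (219.9 to 246.8, 1170 UMIs) in Tconv cells, 212 CPM (202 to 222, 1750 UMIs) in Treg cells, 187 CPM (139.5 to 245, 52 UMIs) in NKT cells and 168 CPM (156.7 to 179.5, 848 UMIs) in CD8+ T cells. At equal depth 28.6%, 26.0%, 19.0% and 23.2% of these cells had a UMI. Of the 6 disjoint groups, CD8+ T cells with a Pdcd1 UMI had the lowest level, 124 CPM (108.7 to 140.9), and this was the one step between neighbours that exceeded counting error. Macrophage-marker cells held 794 CPM.

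The Bcl2a1 genes, which encode the inducible survival protein A1, differed from each other. Bcl2a1b was read at 84.7 CPM (76.9 to 93.1) in CD8+ T cells, 88.0 CPM (81.7 to 94.6) in Treg cells, 80.7 CPM (73.0 to 88.9) in Tconv cells and 115 CPM (78.6 to 162.3, 32 UMIs) in NKT cells. All of these intervals overlapped. Bcl2a1d was read at 75.8 CPM (68.4 to 83.8) in CD8+ T cells, 70.3 CPM (63.2 to 78.0) in Tconv cells, 64.7 CPM (38.3 to 102.2, 18 UMIs) in NKT cells and 45.1 CPM (40.7 to 49.97) in Treg cells. Here the Treg level lay below those of CD8+ T cells and Tconv cells without overlap. At equal depth 6.08% of Treg cells (5.11% to 7.17%) had a UMI. This compares with 9.56% of CD8+ T cells (7.92% to 11.4%) and 8.02% of Tconv cells (6.67% to 9.54%), and the Treg and Tconv intervals overlapped. Of the 6 disjoint groups, Bcl2a1d was highest in CD8+ T cells with a Pdcd1 UMI (104.6 CPM). It was lowest in Treg cells with an Il1rl1 UMI (29.3 CPM). The high level was not particular to CD8+ T cells, since Tconv cells with a Pdcd1 UMI held Bcl2a1d at 104.5 CPM (85.1 to 126.9). Bcl2a1a, another copy, had 20 UMIs (2.42 CPM) in Treg cells, 8 (1.58 CPM) in CD8+ T cells and 4 (0.797 CPM) in Tconv cells and 50.7 CPM in macrophage-marker cells.

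Bax, the pore former, was the most even member. Its levels were 181 CPM (172.1 to 190.6, 1497 UMIs) in Treg cells, 180 CPM (133.3 to 236.8, 50 UMIs) in NKT cells, 176 CPM (164.9 to 188.3, 891 UMIs) in CD8+ T cells and 166 CPM (155.0 to 177.8, 834 UMIs) in Tconv cells. The intervals overlapped, and no step in the order of the 6 disjoint groups exceeded counting error. At equal depth 21.3% to 25.3% of the cells of the 4 groups had a UMI.

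Bcl2l11, the gene of the BH3-only protein BIM, was higher in CD8+ T cells than in Tconv and Treg cells. Its NKT level was higher still as read, but from few UMIs. Its levels were 86.2 CPM (55.3 to 128.3, 24 UMIs) in NKT cells, 64.7 CPM (57.9 to 72.1, 327 UMIs) in CD8+ T cells, 40.2 CPM (34.9 to 46.2, 202 UMIs) in Tconv cells and 33.04 CPM (29.2 to 37.2, 273 UMIs) in Treg cells. The intervals of NKT cells and CD8+ T cells did not overlap those of the CD4+ groups. Shares at equal depth were 12.7% (6.24% to 22.0%), 9.04%, 5.94% (4.78% to 7.29%) and 4.27%, and without thinning 21.0%, 20.4%, 9.89% and 8.93%. At equal depth the NKT interval thus overlapped that of Tconv cells. Counting the members whose shares at equal depth had intervals that did not overlap between CD8+ T cells and Treg cells gave 4 of 7, namely Bcl2, Bcl2l1, Bcl2a1d and Bcl2l11, where 34.6% of the 2422 genes detected in numbers of cells within the members' range showed such a gap.

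Ratios between groups were then set against all genes. A gene was compared if its pooled level gave at least 20 expected UMIs in each group, and a ratio past 1.5-fold was counted. Without replicates the counts describe this library, and the 3 comparisons of lineages share their groups.

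**Figure D2:**
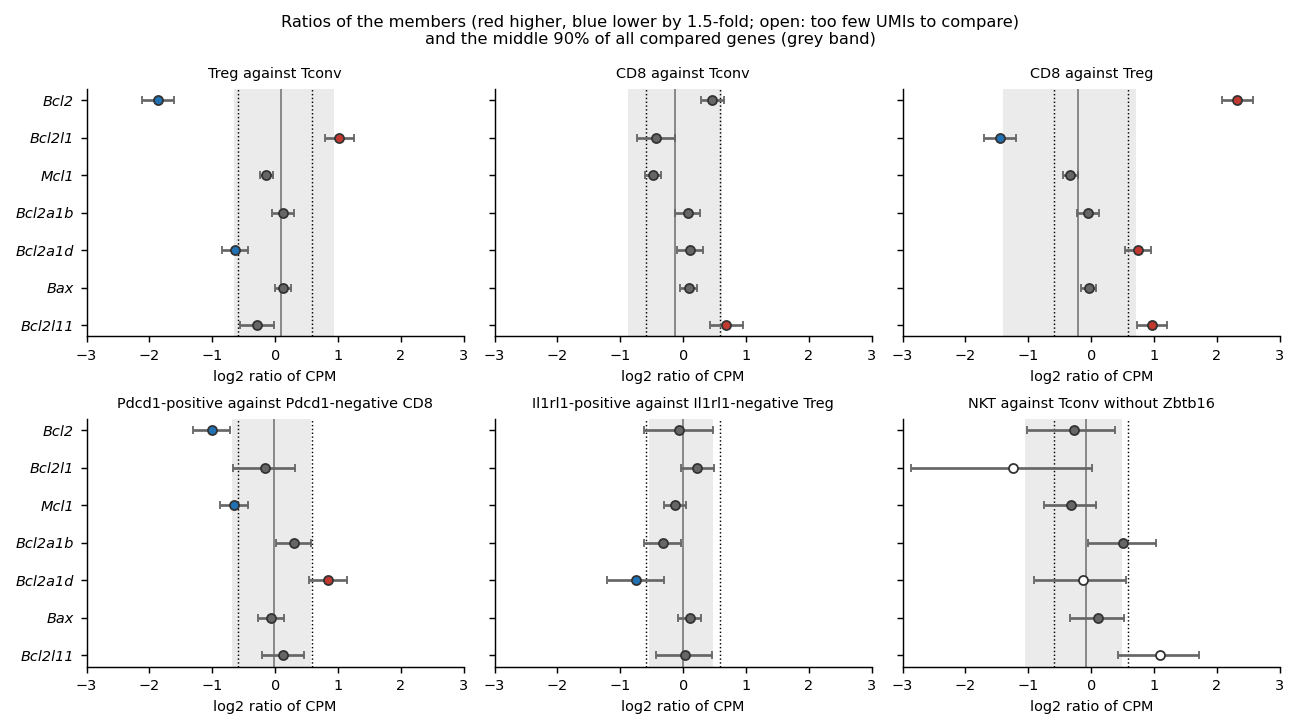
The log2 ratio of CPM of each member (points) with exact conditional binomial 95% intervals (bars) in 6 comparisons; dotted lines mark 1.5-fold, the grey band the middle 90% of all compared genes and the grey line their median. Bcl2 at -1.86 in Treg against Tconv cells and 2.32 in CD8+ T cells against Treg cells lies outside the band.

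Between Treg and Tconv cells, the survival genes differed in opposite directions. Bcl2 was lower in Treg cells, at 0.275 of the Tconv level (0.230 to 0.328), Bcl2l1 was 2.03-fold higher (1.73 to 2.37) and Bcl2a1d stood at 0.642 (0.554 to 0.745). One of 7 members was higher past 1.5-fold, where 12.4% of 9189 genes were, and 2 were lower, where 5.71% of genes were. The median log2 ratio was -0.14 over the members and 0.09 over all genes. Bcl2 lay at the 0.577th percentile of the compared genes and Bcl2l1 at the 95.8th. The call of Bcl2a1d was lost in 4 of 10 alternatives, at 0.773 without the upper limit on detected genes and 0.789 at equal depth. Leaving out the Tconv cells with an Ikzf2 or Il2ra UMI, an alternative chosen after seeing the data, moved Bcl2 to 0.223 and Bcl2l1 to 2.71. The Tconv cells left out held Bcl2 at 53.6 CPM and Bcl2l1 at 57.5 CPM, and the 1072 others held them at 102.2 and 31.3 CPM, ratios of 0.524 (0.417 to 0.655) and 1.84 (1.39 to 2.44).

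Of 56 compared genes on 9 lists of the pathway, 15 were higher in Treg cells, 2 were lower and the others lay within 1.5-fold, with a median log2 ratio of 0.30. Of all genes 12.4% were higher and 5.71% lower. The 4 highest were Il2ra, the high-affinity IL-2 receptor chain, at 4.03-fold (3.68 to 4.41), Bnip3, a hypoxia-induced BH3-only gene, at 2.72-fold (2.39 to 3.09), Tnfrsf1b, encoding TNF receptor 2, at 2.56-fold (2.34 to 2.81) and Pmaip1, encoding the BH3-only protein NOXA, at 2.28-fold (1.91 to 2.72). The 2 lower genes were Fasl, the death ligand, at 0.255 (0.177 to 0.362) and Bik, at 0.657 (0.410 to 1.06). By list, 4 of 8 apoptosome and caspase genes, 4 of 9 survival cytokine receptor genes, 2 of 7 BH3-only genes and 1 each of 6 inhibitors of apoptosis, 9 death receptor genes, 8 NF-κB genes and 5 p53 targets were higher, where 12.4% of all genes were. None of the 3 genes of the FoxO list passed 1.5-fold, and of the family genes outside the members 1 could be compared, Bak1, encoding the pore former BAK, which was higher with a log2 ratio of 0.63.

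CD8+ T cells differed from Tconv cells in fewer members. Bcl2l11 was 1.61-fold higher (1.35 to 1.93), 1 of 7 members where 5.46% of 9006 genes were higher, and none was lower where 12.6% of genes were. Bcl2 stood at 1.38 (1.21 to 1.57), Bcl2l1 at 0.743 (0.600 to 0.918) and Mcl1 at 0.720 (0.658 to 0.787), and Bcl2a1b, Bcl2a1d and Bax lay between 1.05 and 1.08. The median log2 ratio was 0.09 over the members and -0.12 over all genes. Both depended on the upper limit of 2500 detected genes, without which Bcl2l11 stood at 1.27 and Bcl2 at 0.972. Over the 10 alternatives Bcl2 reached 1.58, and Bcl2l11 came within 1.5-fold in 3. Of 56 compared pathway genes, 2 were higher, Fasl at 2.08-fold (1.65 to 2.62) and Birc5, encoding the mitotic inhibitor of apoptosis survivin, at 1.79-fold (1.45 to 2.21). The 16 lower genes were led by the IL-7 receptor gene Il7r at 0.415 (0.380 to 0.454), Bik at 0.430 (0.223 to 0.792), the TRAIL receptor gene Tnfrsf10b at 0.445 (0.213 to 0.884) and Il2ra at 0.488 (0.421 to 0.564).

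CD8+ T cells and Treg cells lay farthest apart. As read, Bcl2 was 5.01-fold higher in CD8+ T cells (4.24 to 5.94), with the Treg level not told apart from the stray RNA reference. Bcl2l11 was 1.96-fold higher (1.66 to 2.31) and Bcl2a1d 1.68-fold (1.45 to 1.94), and Bcl2l1 stood at 0.367 (0.306 to 0.437). In all, 3 of 7 members were higher where 7.10% of 9172 genes were, and 1 was lower where 22.4% of genes were. Mcl1 at 0.792, Bcl2a1b at 0.963 and Bax at 0.973 were within 1.5-fold. The median log2 ratio was -0.04 over the members and -0.22 over all genes. All 4 members past 1.5-fold stayed past it in each of the 9 alternatives, with Bcl2 between 3.47-fold without the upper limit on detected genes and 6.21-fold without cells carrying 2 productive beta chains. Of 56 compared pathway genes, 30 were lower in CD8+ T cells and 1, Fasl, was higher at 8.14-fold (5.93 to 11.4). The 4 lowest were Il2ra at 0.121 (0.107 to 0.137), Tnfrsf1b at 0.254 (0.227 to 0.284), Tnfrsf10b at 0.299 (0.152 to 0.545) and Bcl3, an atypical IκB protein gene, at 0.313 (0.272 to 0.359).

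The ratio of Bcl2 UMIs to Bcl2l1 UMIs was compared between groups only, since UMIs are not divided by gene length and its size within a group is not read. Bcl2 had 3.67 UMIs for each Bcl2l1 UMI in CD8+ T cells (3.07 to 4.41), 1.98 in Tconv cells (1.67 to 2.34) and 0.269 in Treg cells (0.227 to 0.316). In NKT cells the ratio was 3.80 (1.37 to 13.0) from 19 and 5 UMIs. Against its antagonist gene Bcl2l11, Bcl2 had a ratio of 1.76 in CD8+ T cells (1.54 to 2.02), 2.05 in Tconv cells (1.73 to 2.44) and 0.689 in Treg cells (0.569 to 0.832). Bcl2l1 against Bcl2l11 gave 2.56 in Treg cells (2.23 to 2.96), 1.04 in Tconv cells (0.853 to 1.27) and 0.480 in CD8+ T cells (0.394 to 0.583). Both ratios to Bcl2l11 thus separated Treg cells from CD8+ T cells, in opposite directions, and neither says how much protein was present.

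Within CD8+ T cells, the 360 cells with a UMI of Pdcd1, which encodes the checkpoint receptor PD-1, were compared with the 900 without. Bcl2 stood at 69.9 CPM with and 140.6 CPM without, a ratio of 0.497 (0.406 to 0.605), Mcl1 at 0.638 (0.547 to 0.743) and Bcl2a1d at 1.79 (1.46 to 2.20). One of 7 members was higher where 4.76% of 6642 genes were, and 2 were lower where 7.50% of genes were. Bcl2a1b at 1.22 (1.01 to 1.49), Bcl2l11 at 1.09, Bax at 0.955 and Bcl2l1 at 0.893 were within 1.5-fold, and the median log2 ratio was -0.07 over the members and -0.02 over all genes. Cells with a Pdcd1 UMI were deeper, with a median of 5059.5 against 3030 UMIs, and held macrophage markers at a summed 117 against 195 CPM, whose part was not tested. Without cells that carried another cell type's marker, the ratios were 0.453 for Bcl2, 0.632 for Mcl1 and 1.95 for Bcl2a1d. At 1500 UMIs per cell 8.55% of them (5.84% to 11.98%) had a Bcl2 UMI, against 16.5% (14.0% to 19.3%) of the others. The Mcl1 call was lost in 4 of 9 alternatives, which gave up to 0.728. Read after thinning, the Pdcd1 split held 134 positive cells and put Bcl2 at 0.675. Without the upper limit on detected genes Bcl2 stood at 0.324.

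Of 50 compared pathway genes in that split, 2 were higher and 6 lower. Among the higher genes, Bnip3 stood at 1.51-fold (1.18 to 1.94). The lowest were Klf2, a transcription factor gene of quiescent T cells, at 0.391 (0.357 to 0.427), Il7r at 0.401 (0.331 to 0.485), Tnfrsf1a at 0.506 (0.299 to 0.825) and Il15ra at 0.552 (0.278 to 1.03).

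Within Treg cells, the members differed less by Il1rl1, which encodes the IL-33 receptor ST2. Comparing 504 cells with an Il1rl1 UMI with 2105 without, Bcl2a1d stood at 0.597 (0.432 to 0.811), 1 of 7 members lower where 4.30% of 6656 genes were, and none was higher where 2.82% of genes were. Bcl2a1b stood at 0.800 (0.652 to 0.974), Bcl2 at 0.958 (0.647 to 1.39), Bcl2l1 at 1.17 (0.973 to 1.40), Mcl1 at 0.912, Bax at 1.08 and Bcl2l11 at 1.02. The median log2 ratio was -0.06 over the members and 0.00 over all genes. Bcl2a1d came within 1.5-fold in 3 of 9 alternatives, with 0.726 the value nearest to 1. Macrophage markers summed to 70.8 CPM with and 201 CPM without an Il1rl1 UMI, and without cells that carried another cell type's marker Bcl2a1d stood at 0.630. Of 51 compared pathway genes, 4 were higher: Il2ra at 1.86-fold (1.74 to 1.998), Stat5a, a transducer of IL-2 signals, at 1.72-fold (1.41 to 2.08), Klf2 at 1.68-fold (1.59 to 1.78) and the death receptor gene Fas at 1.63-fold (1.28 to 2.08). The 3 lower genes were Birc5 at 0.481 (0.327 to 0.688), Casp6 at 0.629 (0.443 to 0.873) and Foxo3 at 0.662 (0.457 to 0.937).

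The NKT comparison was limited by its 278310 UMIs. Against Tconv cells without a Zbtb16 UMI, 4 of 7 members could be compared. None of these was higher past 1.5-fold, where 3.18% of 1763 genes were, and none was lower, where 13.5% of genes were. Bcl2a1b stood at 1.43 (0.963 to 2.05), Bax at 1.08 (0.793 to 1.43), Bcl2 at 0.824 (0.491 to 1.30) and Mcl1 at 0.802 (0.596 to 1.06), with a median log2 ratio of -0.09 over these 4 and over all genes. Bcl2l11 at 2.14 (1.34 to 3.28), Bcl2a1d at 0.913 (0.535 to 1.46) and Bcl2l1 at 0.425 (0.136 to 1.01) had too few expected UMIs and are given as values only. Of 22 compared pathway genes, 5 were lower and none higher, the lowest 4 being Klf2 at 0.361 (0.290 to 0.443), Jak3 at 0.453 (0.215 to 0.841), Il2ra at 0.513 (0.291 to 0.841) and Stat5b at 0.611 (0.346 to 1.00).

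The near-identical pair was then read as a split of UMIs between the copies, which are told apart by bases such as those in capitals above. Bcl2a1b took 66.1% of the UMIs of both genes in Treg cells (63.2% to 68.9%), 53.4% in Tconv cells (49.8% to 57.0%) and 52.8% in CD8+ T cells (49.3% to 56.3%). The Treg share stood apart from the other 2, and macrophage-marker cells gave 66.5% (58.8% to 73.5%). Within CD8+ T cells it was 47.8% (42.7% to 52.9%) with a Pdcd1 UMI and 57.2% (52.4% to 61.9%) without, and within Treg cells 71.4% (64.0% to 78.1%) with an Il1rl1 UMI and 65.1% (62.0% to 68.2%) without. Without the upper limit on detected genes the shares were 62.5% in Treg cells, 53.3% in Tconv cells and 49.2% in CD8+ T cells. When every cell was thinned to 1500 UMIs, which weights cells equally, they were 64.1% (59.2% to 68.7%), 59.5% (53.8% to 65.0%) and 58.7% (52.9% to 64.4%), and the intervals overlapped. The copies' counts are uncertain where reads fit both, and a difference in which part of the transcript was captured cannot be told apart from a difference in the copies' levels.

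**Figure D3:**
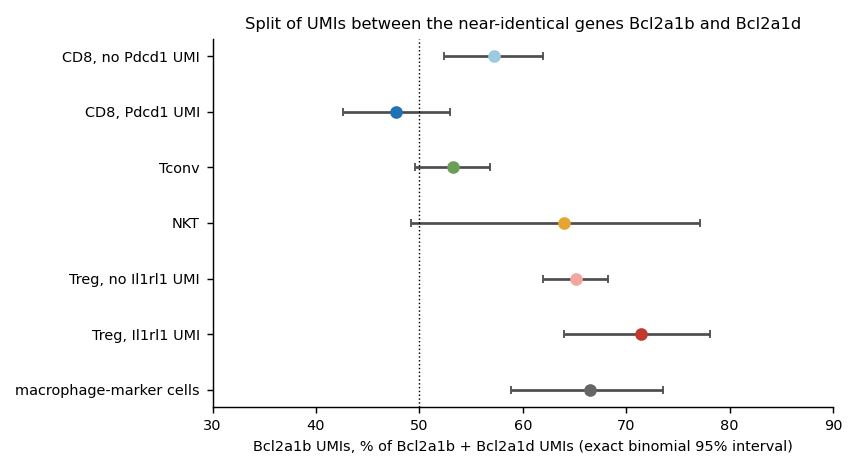
Share of Bcl2a1b among the UMIs of Bcl2a1b and Bcl2a1d (points, percent) in 6 disjoint T cell groups and in macrophage-marker cells, with exact binomial 95% intervals (bars). Both Treg groups lie at 65.1% and 71.4%, CD8+ T cells with a Pdcd1 UMI at 47.8%.

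Each lineage was also split by genes of cell state. Tnfrsf9, which encodes the costimulatory receptor 4-1BB, marked cells low in Bcl2 and high in Bcl2l1 in all 3 lineages. How often all genes differed by Tnfrsf9 was not counted, so the members are not said to stand out. Median depth with and without a Tnfrsf9 UMI was 4979 and 3029 UMIs in CD8+ T cells, 3008 and 2220.5 in Treg cells and 2459 and 2508 in Tconv cells. Bcl2 stood at 17.1 CPM in the 1991 Treg cells with a Tnfrsf9 UMI and 46.3 CPM in the 618 without, a ratio of 0.370 (0.273 to 0.502). In Tconv cells Bcl2 stood at 49.3 and 98.9 CPM, a ratio of 0.498 (0.386 to 0.637). In CD8+ T cells it stood at 69.5 and 144.2 CPM, a ratio of 0.482 (0.396 to 0.584). Bcl2l1 gave the opposite ratios. They were 2.56 in Treg cells (1.96 to 3.39, 96.0 against 37.5 CPM), 2.44 in Tconv cells (1.84 to 3.23, 69.3 against 28.4 CPM) and 1.53 in CD8+ T cells (1.11 to 2.12, 39.2 against 25.6 CPM). Shares at equal depth followed, with 13.3% of Tnfrsf9-positive and 5.18% of Tnfrsf9-negative Treg cells holding a Bcl2l1 UMI. Among cells with a Tnfrsf9 UMI, Bcl2l1 stood at 96.0 CPM (88.7 to 103.8) in Treg cells and at 69.3 CPM (57.2 to 83.3) in Tconv cells, without overlap. Among cells without one it stood at 37.5 CPM (28.6 to 48.3) and 28.4 CPM (23.0 to 34.7), and the intervals overlapped. The Bcl2 intervals of Treg and Tconv cells did not overlap among cells with a Tnfrsf9 UMI, at 17.1 CPM (14.1 to 20.6) and 49.3 CPM (39.1 to 61.2), or without one, at 46.3 CPM (36.4 to 58.1) and 98.9 CPM (88.6 to 110.1). The Treg level without a Tnfrsf9 UMI lay above the stray RNA reference of 13.0 CPM (5.97 to 24.8). At equal depth the shares with a Bcl2 UMI had overlapping intervals. These were 3.52% to 7.87% in Treg cells without a Tnfrsf9 UMI and 0.468% to 6.45% in the reference. With its 9 UMIs the reference cannot decide whether these Treg cells are above background.

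**Figure D4:**
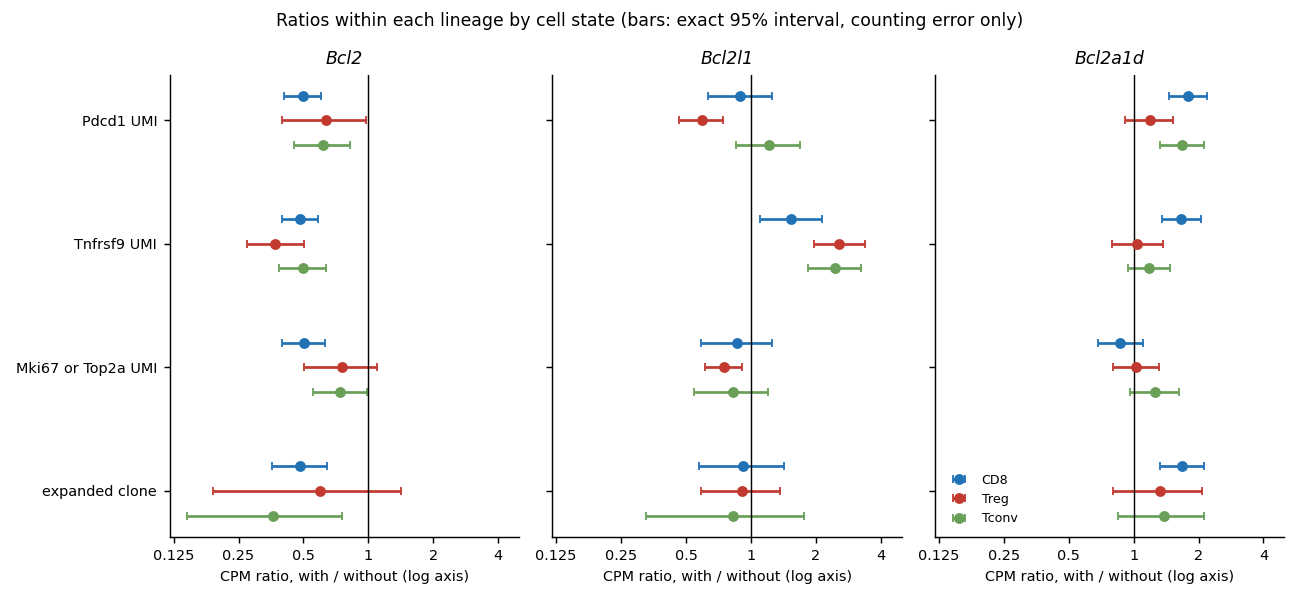
CPM ratios of Bcl2, Bcl2l1 and Bcl2a1d between cells with and without a UMI of the named genes, or between expanded and single clones, within CD8+ T cells, Treg cells and Tconv cells (points, log axis) with exact 95% intervals (bars). For Tnfrsf9, Bcl2 lies below 1 and Bcl2l1 above 1 in all 3 lineages.

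Pdcd1 split the lineages less uniformly. In Tconv cells a Pdcd1 UMI went with Bcl2 at 0.614 (0.451 to 0.821), Mcl1 at 0.693 (0.585 to 0.818), Bcl2a1d at 1.68 (1.32 to 2.13), Bcl2l11 at 1.61 (1.16 to 2.20) and Bcl2a1b at 1.34 (1.06 to 1.69). Tconv cells with a Pdcd1 UMI were deeper (median 2866.5 against 2454 UMIs). At equal depth the intervals of the shares overlapped for Bcl2, Mcl1, Bcl2l11 and Bcl2a1b. Those of Bcl2a1d did not, at 13.9% (9.78% to 19.0%) against 6.86% (5.50% to 8.43%). In Treg cells a Pdcd1 UMI went with Bcl2l1 at 0.592 (0.466 to 0.745) and Bcl2 at 0.635 (0.396 to 0.979). The Treg Bcl2 levels, 15.5 CPM from 24 UMIs with and 24.4 CPM without a Pdcd1 UMI, were not told apart from the stray RNA reference. Treg cells with a Pdcd1 UMI were deeper (median 3568 against 2666 UMIs), and at equal depth 2.79% of them and 2.89% of the others had a Bcl2 UMI. How often all genes differed by Pdcd1 within Treg or Tconv cells was not counted. The Bcl2l1 ratio in Tconv cells was 1.21 (0.855 to 1.68), and that of Treg cells did not overlap it.

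Cycling cells, those with a UMI of Mki67 or Top2a, were compared with the rest. Among CD8+ T cells, Bcl2 stood at 0.502 (0.396 to 0.630) and Mcl1 at 0.679 (0.571 to 0.805) in 251 cycling against 1009 other cells. Bcl2l1 in Treg cells, at 0.750 (0.614 to 0.909), and Bcl2 in Tconv cells, at 0.742 (0.552 to 0.981), also had intervals that left out 1. In all 4 of 21 intervals did, where 15.4% of those of all genes with UMI counts in the members' range did. At equal depth the intervals of the shares overlapped for Bcl2l1 in cycling and other Treg cells, at 9.58% and 12.1%. They also overlapped for Bcl2 in Tconv cells, at 11.2% and 11.4%, but not for Bcl2 or Mcl1 in CD8+ T cells. Bax lay between 0.985 and 1.13 in the 3 lineages.

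Expanded clones, with at least 2 cells of a lineage sharing a clonotype, were compared with clones of 1 cell. Among CD8+ T cells, 200 expanded cells held Bcl2 at 58.4 CPM and 721 single cells at 121 CPM, a ratio of 0.483 (0.358 to 0.641). Bcl2a1b stood at 1.69 (1.35 to 2.10), Bcl2a1d at 1.68 (1.32 to 2.13), Bax at 1.32 (1.12 to 1.55) and Mcl1 at 0.800 (0.652 to 0.976). At equal depth the intervals of the shares overlapped for Bax, at 25.6% in expanded and 23.5% in single cells, and for Mcl1, at 22.1% and 21.8%. Those of Bcl2, Bcl2a1b and Bcl2a1d did not overlap. The split between the copies hardly differed, with Bcl2a1b at 53.2% of both in expanded and 53.1% in single cells. In Tconv cells Bcl2 stood at 0.361 (0.144 to 0.753) with 7 UMIs in 63 expanded cells. In Treg cells Bcl2 stood at 0.594 (0.190 to 1.42) and no member's interval left out 1. Over the lineages 6 of 21 intervals did, where 10.7% of those of all genes with UMI counts in the members' range did. Clones drawn from the beta chain alone gave 8 of 21, where 12.9% of those of all genes did. By the beta chain Bcl2 in Treg cells stood at 0.308 (0.0986 to 0.737) from 5 UMIs in 151 expanded and 138 in 1294 single cells. This interval left out 1, at levels that are not told apart from the stray RNA reference. Bcl2 in Tconv cells then stood at 0.577 (0.356 to 0.891) and Bcl2a1d at 1.98 (1.44 to 2.68).

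Between tumors, the hashtag library gave little to compare. It held 1730 tag UMIs against 22837655 that matched no tag, and 849 of the 939 kept cells given a tumor rested on 1 tag UMI. With 55 Treg cells of B16–IL-33 and 245 of B16 tumors, Bcl2l1 had 20 and 56 UMIs, a ratio of 1.86 (1.05 to 3.14), and Bcl2a1b had 10 and 107, a ratio of 0.486 (0.226 to 0.928). Of 21 intervals these 2 left out 1, where 5.12% of those of all genes with UMI counts in the members' range did, and neither did so with the tags numbered 1 or the tags numbered 2 alone, where Mcl1 in Tconv cells, at 2.51, was the single ratio that did. In CD8+ T cells (19 against 103) Bcl2 stood at 0.979 (0.462 to 1.89) and Bcl2l1 had 0 UMIs in 19 cells. In Tconv cells (17 against 164) all 7 intervals included 1. Differences between tumors were thus not detectable at this depth for most members. Cells of each kind of tumor carried tags numbered 1 and 2. Whether these stand for separate animals is not given, and they are not read as replicates.

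The upper limit of 2500 detected genes removed cells in which the members had other levels. It left out 278 CD8+ T cells, 224 of them with a Pdcd1 UMI, with a median of 14536 UMIs. Bcl2 stood at 28.5 CPM (23.8 to 33.9) in these cells against 114 CPM in the kept CD8+ T cells, and Bcl2l11 at 27.4 CPM (22.8 to 32.7) against 64.7 CPM. Bcl2a1d was higher there at 100.1 CPM (91.1 to 109.7) and Bax at 213 CPM (199.7 to 226.9), and Bcl2l1 was 24.1 CPM (19.8 to 29.0). The 224 Treg cells above the limit held Bcl2l11 at 19.996 CPM (15.2 to 25.8), Bcl2a1d at 74.8 CPM (65.2 to 85.5) and Bcl2l1 at 63.4 CPM (54.6 to 73.3). Of the removed CD8+ T cells 73.7% had a Mki67 or Top2a UMI and 15.8% at least 2 productive beta chains, against 19.9% and 6.75% of the kept ones, and the part of either in these levels was not tested.

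The members were also read cell by cell at 1500 UMIs. Cells with a Bcl2a1b UMI more often held a Bcl2a1d UMI than cells without, in 16.6% against 8.45% of CD8+ T cells, 16.3% against 6.95% of Tconv cells and 13.0% against 5.19% of Treg cells. Treg cells with a Bcl2a1b UMI also held Bcl2l1 in 18.3% (13.7% to 23.7%) of cases, against 10.7% (9.34% to 12.2%). Cells with a Bcl2 UMI held Bcl2a1d in 4.32% (1.75% to 8.70%) of CD8+ T cells and those without in 10.4% (8.58% to 12.5%), and these intervals overlapped. A Bcl2l1 UMI was held by 4.94% of CD8+ T cells with and 4.95% of those without a Bcl2 UMI. In Tconv cells these shares were 5.49% and 5.38%. How often pairs of other genes differed was not counted, so the named pairs are not said to stand out.

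Over the 6 disjoint groups, likeness to other genes was measured as Pearson's r of log2(CPM + 1) among 1793 genes with at least 20 expected UMIs in each group. The values rest on 6 points that share 1 library, and the NKT group is shallow. The 3 genes most like Bcl2 were Bcas2, Hcst and Rps14 (r of 0.97 each), and those most like Bcl2l1 were Commd4, Arf1 and Sdc4 (r of 1.00 each). Mcl1 was most like Rdx (r = 1.00), Pde4b and Ccnl1 (0.97 each), and Bcl2l11 most like Rps12 (0.99), Rpl27-ps3 (0.98) and Rpl39 (0.97). Bcl2a1b was most like Mapre1 (0.95), Cdc37 (0.93) and Ndufab1 (0.92), and Bcl2a1d like Cct8 (0.97), Lsp1 (0.96) and Lsm5 (0.95). For Bax, the flattest member, the highest values were Ddx21 (0.91), G3bp1 (0.89) and Ddost (0.88). Among the members themselves, to which the limit of 20 expected UMIs was not applied, Bcl2l1 and Bcl2l11 were farthest apart at -0.96. The pair Bcl2 and Bcl2l1 stood at -0.78. Their NKT points rest on 5 Bcl2l1, 24 Bcl2l11 and 19 Bcl2 UMIs.

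The 3380 cells without a lineage call, with a median of 2006 UMIs, were not described further than by their levels. Bcl2 stood at 80.9 CPM, Bcl2l1 at 57.2 CPM, Bcl2l11 at 54.9 CPM and Bax at 185 CPM. Mcl1, at 320 CPM (307.4 to 332.2), was above all 4 T cell groups. Macrophage-marker cells, which held Mcl1 at 794 CPM, were not removed from this set, and their part in its level was not tested. The highest count of any member in 1 kept cell was 22 UMIs, of Mcl1.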

How the data were processed

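T cells of B16 and B16–IL-33 tumors were sequenced as 1 pool. The authors deposited UMI counts that were not normalized, for genes and tags in each barcode, and a table of TCR contigs with their UMI counts. Per the labels the counts were made with Cell Ranger 6.1.1 on mm10, whereas the matrix header names version 3.1.0; the matrix also holds human genes (8562 UMIs, not used). Cells were kept by the limits of the study's methods, and lineages were read from each cell's own UMIs. Counts were summed over cells as CPM in Python 3.11.15 (NumPy 2.4.6, SciPy 1.17.1) with exact 95% intervals for counting error. Intervals of ratios were checked on simulated counts. Thinning drew 1500 UMIs per cell once, with seed 1. No test was made, since cells of 1 library are not replicates.

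The members, gene lists and groups were chosen with earlier results of these data known. Named pathway genes were up to 4 higher and 4 lower per comparison by size of the log2 ratio, among those past 1.5-fold. The lists were Bcl2 family genes outside the members, BH3-only genes, apoptosome and caspase genes, inhibitors of apoptosis, death receptor, survival cytokine receptor and NF-κB genes, p53 targets and FoxO genes. A cell was given a tumor if all its tag UMIs were of that tumor; 5 kept cells had tags of both. No protein sequences were used here. Values that rest on some genes are not reported here.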

Additional observations from a re-analysis of the deposited data

How the results depend on the processing

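Of 12 ratios past 1.5-fold, 112 values under the alternatives all kept their direction, 97 stayed past 1.5-fold and 102 lay within the counting interval. The count of members past 1.5-fold moved as follows. In CD8+ T cells against Tconv cells it was 1, and it was 0 without the upper limit on detected genes, 2 without cycling cells, 2 with CPM averaged over cells and 2 with lineages read after thinning. By Il1rl1 in Treg cells it was 1, and it was 0 without cycling cells, 0 with CPM averaged over cells and 2 at 1500 UMIs per cell. By Pdcd1 in CD8+ T cells it was 3, and it was 2 without the upper limit, with mitochondrial UMIs under 10% and at 1500 UMIs per cell, and 1 with genes read after thinning. In Treg cells against Tconv cells it was 3, and it was 2 without the upper limit, at 1500 UMIs per cell, with genes read after thinning and against Tconv cells without an Ikzf2 or Il2ra UMI. In CD8+ T cells against Treg cells it was 4 throughout. In NKT cells it was 0, and 1 with CPM averaged over cells, at equal depth and with genes read after thinning, which left 47 NKT cells. Between tumors 2 intervals left out 1, with 0 for the tags numbered 1 and 1 for the tags numbered 2. The causes were not tested, apart from the fewer cells. Leaving out cells with other cell types' markers, or with 2 beta chains, kept each count. No paired analysis was possible because no comparison has replicates.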
